A study of Mus musculus with 10 samples.

Results

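SOX9 is an HMG-box transcription factor that chondrocytes, the cells of cartilage, and hair follicle stem cells (HFSCs) of the skin both express. The genes described here are 10 that are known from cartilage as SOX9 targets or as parts of the cartilage matrix, with collagens left out: Wwp2, Mir140, Scrg1, Acan, Comp, Hapln1, Matn2, Matn3, Matn4 and Papss2. They were found by symbol among the 37298 gene rows of the expression table, where each has 1 row, and they occupy 9 loci because Mir140 is listed with the coordinates of Wwp2. The list was chosen by the genes' known roles, with the measured FPKM of Wwp2 and the other genes in these 4 libraries and the peaks near them already seen. Differences of the 10 genes between the genotypes are therefore given as a description and not as a test.

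RNA was sequenced from 4 libraries of HFSCs. The cells were sorted from telogen (resting-phase) back skin as cells high in integrin α6, positive for CD34 and YFP and negative for a marker written ScaI. The 2 libraries labelled Sox9 cKO (conditional knockout) and the 2 controls come from mice of mixed C57BL6 background. In both genotypes replicate 1 is male at day 75 with RU486 given on days 48 to 61, and replicate 2 is female at day 80 with RU486 on days 53 to 66. RU486 activates CrePGR, a Cre recombinase fused to the progesterone receptor. The labels do not name the promoter of CrePGR, do not say how many mice made a library, and call the controls heterozygous in their titles and wild type in their genotype field. SOX9 binding was mapped by ChIP-seq, the sequencing of DNA precipitated with SOX9: HFSCs gave 2 libraries and interfollicular epidermal (IFE) cells, sorted as CD34-negative, gave 1. These cells came from CD-1 females, untreated and 52 to 60 days old.

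In cartilage, SOX9 switches on the genes of a hydrated, sulfated matrix. Aggrecan (Acan) carries the sulfated chains, link protein (Hapln1) ties it to hyaluronan, and COMP and the matrilins (Matn genes) bridge proteoglycans and collagens. PAPSS2 makes the activated sulfate that the chains need, and SCRG1 is a small secreted protein reported as a stimulator of chondrogenesis. WWP2 is an E3 ubiquitin ligase whose gene hosts miR-140, a microRNA enriched in cartilage. The skin bulge has no cartilage, and which of these genes are active in HFSCs, carry SOX9 binding there and differ with the Sox9 genotype was the question addressed.

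The microRNA is shown first, because its gene and Wwp2 share a locus and the results turn on both. RefSeq places the Mir140 hairpin inside Wwp2, on the same strand, at chr8:107551244-107551313 of GRCm38.p6, a build other than the mm9 build of the data. Capitals mark the mature 3p arm in the hairpin, and the seed (bases 2 to 8, which pair with targets) in the mature sequences. No mature sequence of the other arm of the hairpin is shown. The third line is the other microRNA among 1738 mature sequences of the RefSeq table that has the same seed.
Mir140 hairpin: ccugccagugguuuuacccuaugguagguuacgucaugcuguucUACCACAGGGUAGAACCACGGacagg
mmu-miR-140-3p: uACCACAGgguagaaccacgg
mmu-miR-497b: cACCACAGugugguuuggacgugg

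The promoter of Wwp2 is shown because its transcript level differs most in absolute terms among these genes. The 200 bases lie before the RefSeq gene on the plus strand, at chr8:107436120-107436319 of GRCm38.p6.
Wwp2 promoter: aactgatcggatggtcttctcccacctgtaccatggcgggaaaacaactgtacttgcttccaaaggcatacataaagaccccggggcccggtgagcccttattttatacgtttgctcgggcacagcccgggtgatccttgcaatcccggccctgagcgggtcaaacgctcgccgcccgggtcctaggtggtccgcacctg

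No capitals appear because neither core word of SOX proteins searched for, ACAAAG or ACAATG on either strand, is in it. The same held for all 8 RefSeq promoter windows (250 bases before to 50 after a start) found for 6 of the 10 genes, namely Wwp2, Acan, Hapln1, Matn3, Matn4 and Papss2. Among all 32851 windows, 18.7% hold ACAAAG, 12.6% hold ACAATG and 28.6% hold either. The 2 words cannot match at the same place. No match says only that these letters are not in these windows.

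Only some of the 10 genes had appreciable transcript levels in HFSCs. Expression is given as FPKM, fragments scaled to transcript length and to the library's mapped fragments, which allows levels of different genes to be compared. A mean of at least 1 FPKM over the 4 libraries was required for a gene to enter the fit across genes, and 38.8% of all rows met it. Wwp2, Mir140, Scrg1, Matn2 and Papss2 met it. Acan, Comp, Hapln1, Matn3 and Matn4 did not. In the controls Wwp2 was highest, at 135 FPKM in replicate 1 and 83.0 in replicate 2, above 98.3% and 96.0% of all rows. Matn2 followed at 19.6 and 9.07, Mir140 at 17.1 and 1.34, Scrg1 at 2.99 and 6.62, and Papss2 at 4.19 and 1.64. Wwp2 stood apart from the rest, whereas the control values of each further neighbour in this order overlapped.

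**Figure D1:**
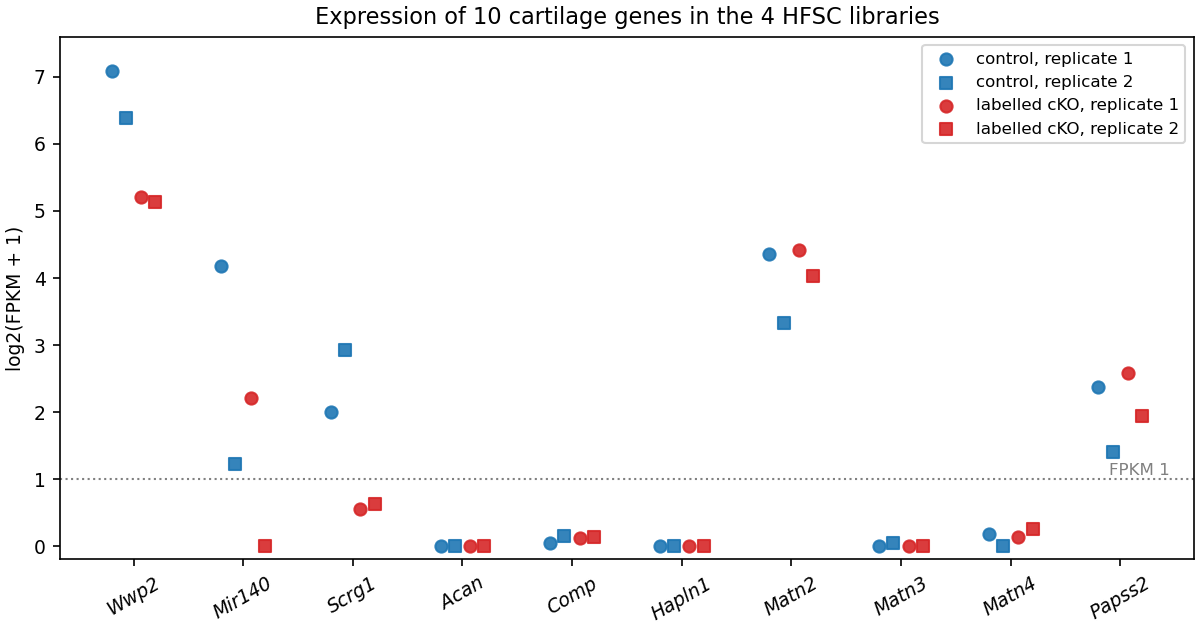
Level of each cartilage gene as log2(FPKM + 1) (vertical axis) in the 4 HFSC libraries, 1 symbol per library, with controls in blue, libraries labelled cKO in red, replicate 1 as circles and replicate 2 as squares. Wwp2 and Scrg1 lie lower in both red libraries than in both blue ones, and the 5 genes Acan, Comp, Hapln1, Matn3 and Matn4 lie below the dotted line at 1 FPKM.

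Before any difference between genotypes, the level of Sox9 itself has to be stated. In replicate order, the controls had 82.7 and 46.5 FPKM of Sox9 and those labelled cKO had 71.3 and 80.5, so the groups overlapped. A single FPKM stands for all of Sox9, and the deleted stretch was not analysed here. Directions therefore follow the labels, and the libraries are called "labelled cKO". Summed FPKM per library ran from 555420 to 903766, and the reads behind it are unknown. All 10 bulge markers met the expression filter of a mean of 1 FPKM, led by Krt15, the bulge keratin, at 8703 FPKM or more in each library. Of the 10, 5 were lower with the cKO label in both pairs (Cd34, Lhx2, Nfatc1, Lgr5 and Tbx1) and 1 was higher in both (Itga6). Krt15, Krt5, Krt14 and Tcf7l1 changed sign between the pairs. Of all 14455 tested genes, 4280 were lower and 4107 higher in both pairs. The median log2(FPKM + 1) difference of the markers was -0.27. Cd34, a surface protein used in the sort, had 460 and 463 FPKM with the cKO label against 652 and 680 in the controls. Tbx1, a T-box factor, had 95.6 and 144 against 202 and 185. Cd34, Tbx1 and Lhx2 had groups that did not overlap, with the cKO label lower, beside 8.42% of all tested genes. Limma called Lhx2 lower with the block, beside 0.180% of all tested genes. The 5 markers lower in both pairs share that direction with Wwp2 and Scrg1, described next. The part of the bulge markers in those values was not tested.

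Wwp2 (ENSMUSG00000031930, mm9 chr8:109960297-110082494) was lower in both libraries labelled cKO. Replicate 1 gave 36.2 FPKM against 135 in its control, and replicate 2 gave 34.2 against 83.0. The groups did not overlap: the higher of the values labelled cKO was below the lower control. The ratio of control to labelled cKO was 3.74 in the male pair and 2.43 in the female pair. On the log2(FPKM + 1) scale used for fitting, which understates changes of low genes, the mean difference was -1.57 ± 0.40 (SE from limma with genotype alone, n = 2 per genotype) and the SE was 0.17 with the replicate number as a block. Of 8 other genes of the NEDD4 family, to which WWP2 belongs, 6 entered the fit. None was called with or without the block, beside 0.284% and 0% of all tested genes. Nedd4l differed most in a common direction, at 5.88 and 3.16 FPKM with the cKO label against 7.44 and 3.76 in the controls, followed by Smurf1.

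For Mir140 (ENSMUSG00000065439), replicate 1 gave 3.64 FPKM with the cKO label against 17.1 in its control. Replicate 2 was listed at 0 against 1.34. The groups overlapped, since the library labelled cKO of replicate 1 stood above the control of replicate 2, although the direction was the same in both pairs. The mean log2(FPKM + 1) difference was -1.60 with an SE of 1.18, which the block lowered to 0.26; the difference was -3.03 with a pseudocount of 0.1 and -0.85 with 5, and -0.12 without control replicate 1. The library type used here captures long transcripts, and the table gives Mir140 the coordinates of its host. Reads of the microRNA gene and of the Wwp2 transcript around it cannot be told apart, so the Mir140 value is uncertain and says nothing of the mature sequence shown above. Rps26-ps1, a pseudogene that the table lists with the same coordinates, went the other way, at 333 and 1170 FPKM with the cKO label against 279.9 and 885 in the controls.

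None of the genes reported elsewhere as miR-140 targets was called with or without the block, beside 0.284% and 0% of all tested genes. With shares so small, this count says nothing particular to them. The reported targets were not divided by the arm of the hairpin for which they were reported. Whether they pair with the seed shown above was not tested, so their levels are no readout of the arm shown. The list has 8 genes in 9 rows (Hdac4 has 2), of which 7 rows entered the fit, and the median log2(FPKM + 1) difference was -0.02 beside -0.01 over all tested genes. Igfbp5, a binding protein of insulin-like growth factors, stood at 24.5 and 13.4 FPKM with the cKO label against 12.0 and 12.8 in the controls. Its groups did not overlap, with the cKO label higher, beside 5.47% of all tested genes. Dnpep, an aminopeptidase, stood at 31.3 and 52.4 against 31.0 and 43.6, and was the other gene of the list with the largest difference in a common direction.

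Scrg1 (ENSMUSG00000031610, mm9 chr8:59934719-59956382) was low in HFSCs and lower still in the libraries labelled cKO. The controls had 2.99 and 6.62 FPKM, those labelled cKO 0.471 and 0.552. The groups did not overlap, and both values labelled cKO were below 1 FPKM. Control exceeded labelled cKO 6.35-fold in the male pair and 12.0-fold in the female pair. The mean log2(FPKM + 1) difference was -1.87 ± 0.43 (SE with genotype alone, limma, n = 2 per genotype; 0.29 with the block). The size of this log2 difference rested on the pseudocount, at -2.90 with 0.1 and -0.81 with 5. Because the filter uses the mean, Scrg1 passed it through its control values alone.

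Matn2 and Papss2, the other genes that met the filter, were not lower in the libraries labelled cKO. Matn2 (ENSMUSG00000022324, mm9 chr15:34236435-34366029), a matrilin made in many tissues, had 20.3 and 15.4 FPKM with the cKO label and 19.6 and 9.07 in the controls. Papss2 (ENSMUSG00000024899, mm9 chr19:32694494-32741677) stood at 4.97 and 2.85 against 4.19 and 1.64. In both genes the groups overlapped and replicate 1 was above replicate 2 in each genotype. The mean log2(FPKM + 1) differences were 0.37 ± 0.46 for Matn2 and 0.37 ± 0.48 for Papss2 (SE with genotype alone, limma). Without control replicate 2 they were -0.14 and -0.11.

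**Figure D2:**
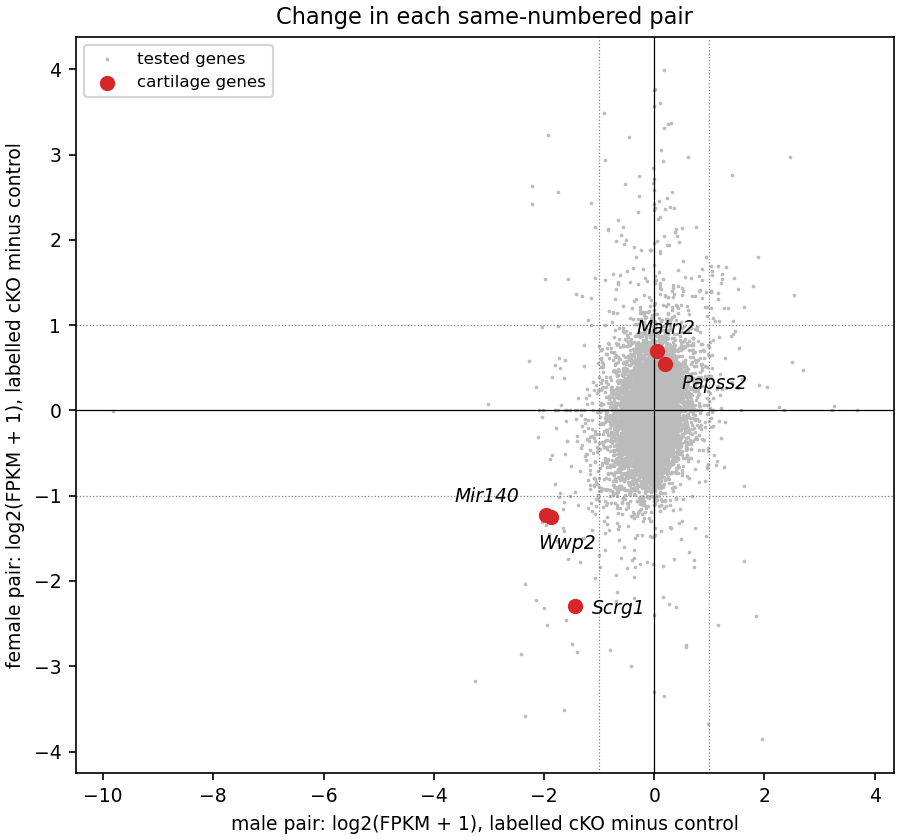
Difference in log2(FPKM + 1), labelled cKO minus control, in the male pair (horizontal axis) and in the female pair (vertical axis) for all 14455 tested genes in grey and the 5 tested cartilage genes in red; dotted lines mark 2-fold. Wwp2, Mir140 and Scrg1 lie beyond 2-fold lower in both pairs, while Matn2 and Papss2 lie on the positive side of both axes.

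The fit across genes gives the background for these values. With genotype alone it does not use the pairing of the libraries. The spread between replicates therefore enters its SE and p-values. With genotype alone limma called 0% of the 14455 tested genes (0 at an adjusted p under 0.05, 93 at an unadjusted p under 0.05), none of the cartilage genes among them, 2 of which, Wwp2 and Scrg1, had an unadjusted p under 0.05. With the replicate block it called 0.284% of tested genes, 0.180% lower in the libraries labelled cKO, and Wwp2 was the 1 cartilage gene among them. On the log2(FPKM + 1) scale, a drop of at least 2-fold in both pairs was seen for 0.277% of tested genes, and for Wwp2, Mir140 and Scrg1. The female pair of Mir140 was 0 against 1.34 FPKM, so the size of its drop rests on the pseudocount. Its reads cannot be told apart from those of Wwp2, so it is not a separate case. Groups did not overlap, with labelled cKO lower, for 8.42% of tested genes and for Wwp2 and Scrg1. The share with labelled cKO higher was 5.47% (13.9% in either direction), and no tested cartilage gene was among those higher. Since the genes were chosen with this contrast known, these shares are printed beside the counts and support nothing further. The call of Wwp2 in the blocked fit ended with quantile normalization, without the mean trend and without the filter on low values.

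The tested genes whose pattern over the 4 libraries was most like that of Wwp2 were Gm16314, Lhx2 and Msrb3. Likeness was the Euclidean distance between log2(FPKM + 1) values centred on each gene's mean, and it was 0.20, 0.30 and 0.31 log2 units, over only 4 libraries. Gm16314, a predicted gene, stood at 9.47 and 7.79 FPKM with the cKO label against 39.95 and 21.4 in the controls. Lhx2, a LIM-homeodomain factor of HFSCs, stood at 114 and 87.1 against 359 and 195. Msrb3, a methionine sulfoxide reductase, stood at 3.29 and 2.45 against 15.5 and 6.88.

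The matrix genes most typical of cartilage were at or close to 0 in every library. Hapln1 (mm9 chr13:89680240-89751437) was listed at 0 in all 4 libraries. Acan (mm9 chr7:86198368-86259985) was listed at 0.00250 FPKM in control replicate 1 and at 0 elsewhere, and Matn3 (mm9 chr12:8954734-8978834), the matrilin most restricted to cartilage in this list, at 0.0328 in control replicate 2 and at 0 elsewhere. Comp (mm9 chr8:72897446-72905964) lay between 0.0317 and 0.114 FPKM, and Matn4 (mm9 chr2:164215128-164240948) between 0 and 0.198. With the depth unknown, a listed 0 does not show absence, and no fold is given for these 5 genes.

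Markers of chondrocytes were also low. Of 17 markers, 5 were listed at 0 in all 4 libraries, Epyc, Lect1, Col9a1, Ucma and Matn1, and 2 met the filter, Cilp and Mia1. The 17 summed to 2.87 and 9.75 FPKM in the controls and 2.53 and 7.77 in those labelled cKO. Without Mia1, the highest of them, the order turned, with 1.71 and 4.23 in the controls and 1.80 and 6.41 with the cKO label. Col2a1, the collagen that defines cartilage, was at 0.0166 FPKM or less. Mia1, a small secreted protein of cartilage, stood at 0.727 and 1.36 FPKM with the cKO label against 1.16 and 5.52 in the controls, and the fit called it neither with nor without the block. The rows 3110079O15Rik (0.197 and 2.25 against 0.0876 and 0.630) and Col11a2 (0.171 and 0.384 against 0.0810 and 0.00444) were below the filter, with the higher value under the cKO label in both pairs. Col9a2, also below the filter, went the same way (0.0127 and 0.0704 against 0.00569 and 0). Col9a3, below the filter too, was lower with the cKO label in both pairs (0.154 and 0.154 against 0.304 and 0.673).

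Some of the 10 genes are also made by other skin cells, and markers of those cells were measured beside them. Summed over 8 fibroblast markers, the controls had 21.5 and 22.4 FPKM and those labelled cKO 28.1 and 32.7. Col1a2, the highest of them, stood at 21.9 and 13.8 with the cKO label against 14.8 and 7.40. Without it the sums were 6.16 and 18.9 against 6.74 and 15.03, so the order in replicate 1 rested on Col1a2. Pdgfra, a defining fibroblast receptor, was at 0.136 FPKM or less. Over 6 markers of Schwann cells the sums were 32.5 and 20.3 against 28.5 and 26.0 (highest Erbb3), and over 5 of melanocytes 46.6 and 14.1 against 41.4 and 17.0 (highest Mitf). Endothelial markers summed to 0.411 or less in every library (highest Tek). Over 5 leukocyte markers the sums were 31.2 and 51.4 against 32.8 and 77.8 (highest Cd74), and over 4 of differentiating epidermis 2505 and 4662 against 2641 and 7275 (highest Krt10). The leukocyte and epidermal sums were lower in both libraries labelled cKO than in their controls, with and without the highest gene. The part of any of these cell types in the values of Wwp2 and Scrg1 was not tested. In bulk samples such as these, fewer cells of a type and less RNA per cell cannot be told apart.

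Other genes of the same machinery were measured as well. The 7 further lists hold 75 genes in 76 rows, of which 44 rows entered the fit. Limma called 0 of them with genotype alone (1 at an unadjusted p under 0.05), beside 0% of all tested genes. With the block it called 1 higher, Thbs2, and 0 lower, beside 0.284% of all tested genes called in either direction. The median log2(FPKM + 1) difference of the 44 rows was -0.02 beside -0.01 over all tested genes. In both pairs 16 rows were lower and 13 higher, beside 4280 and 4107 of all 14455 tested genes. Thbs2, a thrombospondin and so a relative of COMP, stood at 34.4 and 16.1 FPKM with the cKO label against 12.1 and 7.30 in the controls, without overlap. Thbs1, its close relative, stood at 245 and 64.9 against 149 and 62.3.

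Of 26 enzymes that build and sulfate chondroitin chains, 23 entered the fit. None was called with or without the block, beside 0.284% and 0% of all tested genes. The median difference was -0.11 on the log2 scale. In both pairs 9 were lower and 7 higher, beside 4280 and 4107 of all 14455 tested genes. Papss1, the paralog of Papss2, lay between 66.2 and 70.2 FPKM in all 4 libraries, above every value of Papss2. Chsy3, a chondroitin synthase, stood at 1.62 and 0.418 FPKM with the cKO label against 2.15 and 1.97, and Chst14, a dermatan sulfotransferase, at 6.01 and 6.04 against 8.97 and 8.51; neither was called. In all, groups did not overlap for 3 of the 23 with the cKO label lower (Chsy3, Chst14 and Chpf2) and for 3 with it higher (Chst13, Csgalnact1 and B4galt7), beside 8.42% and 5.47% of all tested genes.

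The partners that act with aggrecan or with SOX9 in cartilage were mostly below the filter. Of 10 genes of the hyaluronan matrix, 1 met it, the hyaluronan receptor Cd44, at 52.1 and 23.0 FPKM with the cKO label against 50.5 and 13.7. Of 9 leucine-rich proteoglycans, 2 met it, Aspn at 8.22 and 5.29 against 12.9 and 6.62, and Bgn at 1.14 and 8.25 against 1.07 and 5.53. Of 9 chondrocyte transcription factors, 2 met it, Runx1 and Trps1. Trps1 stood at 3.18 and 0.443 against 4.09 and 1.25. Sox5 and Sox6, which act with SOX9 on cartilage genes, stayed at 0.354 and 1.05 FPKM or less. None of these genes was called with or without the block, beside 0.284% and 0% of all tested genes.

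**Figure D3:**
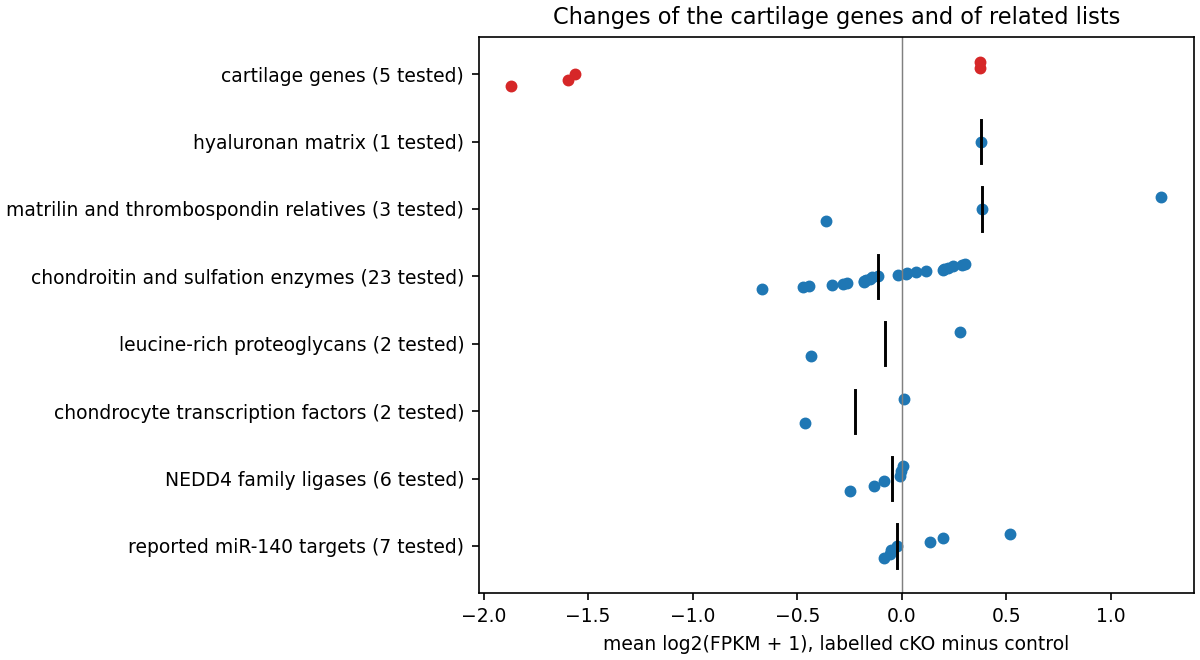
Mean difference in log2(FPKM + 1), labelled cKO minus control (horizontal axis), of the 5 tested cartilage genes in red and of the tested members of each further list in blue, 1 point per gene row; black bars mark the medians of the blue lists. The blue points lie between -0.67 and 0.52 except Thbs2 at 1.24. Of the red points, Wwp2, Mir140 and Scrg1 lie at -1.57, -1.60 and -1.87, and Matn2 and Papss2 both lie at 0.37, within the blue range. Reads of Mir140 cannot be told apart from those of Wwp2. The red genes were chosen with this contrast known, so the figure is a description.

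Levels also differed between the replicates, which differ in sex, age and days of treatment. In the fit with genotype and replicate, 50% of tested genes were called between replicates and 24.1% were called lower in replicate 2. Among the cartilage genes Matn2 (log2 difference -0.71), Papss2 (-0.80) and Mir140 (-2.58) were called lower in replicate 2, and Wwp2 (-0.39) and Scrg1 (0.50) were not called. With so large a share of all genes called, this count says nothing particular to these genes. Fits between replicates that left out a library also dropped genotype from the model, so their calls cannot be set against these.

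SOX9 peaks lay inside the loci of Wwp2, Scrg1 and Matn2, and most of them were found in HFSC list 1 only. The lists hold 8181 and 2989 peaks for HFSCs and 5209 for IFE cells, as positions with no height or score. Within 50 kb, 7 of the 9 loci had a peak in HFSC list 1, where 38.2% of all loci of the table did. The count was 5 of 9 in HFSC list 2, beside 25.5% of all loci, and 3 of 9 in the IFE list, beside 36.5%. Among tested loci the shares were 54.1%, 38.6% and 53.8%. Every locus with a peak in HFSC list 2 also had one in list 1, so 7 of 9 had a peak in either HFSC list, beside 42.8% of all loci. For Acan, Matn2 and Matn4, 3 of the 9 loci, a peak within 50 kb overlapped between the HFSC lists, beside 17.6% of all loci. Hapln1 and Papss2 had none within 50 kb in any list. The table gives no exons, so whether a peak inside a locus is exonic or intronic is not known here.

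Wwp2 held 3 peaks inside its locus of 122 kb, all in HFSC list 1: chr8:110006983-110007891, chr8:110025208-110025844 and chr8:110043576-110044273 (mm9). Their centres are 47.1, 65.2 and 83.6 kb above the lower end of the locus, which by the plus strand in RefSeq is the end where the gene starts. The same list has a further peak at 38.2 kb from the locus, inside Nqo1, a quinone reductase gene. HFSC list 2 and the IFE list have no peak within 50 kb of Wwp2. Long loci catch many peaks: of the 2443 tested loci of at least 100 kb, 46.2% held at least 1 peak of HFSC list 1 and 18.7% held 3 or more.

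Matn2, the other long locus with 129.6 kb, likewise held 3 peaks of HFSC list 1. One of them, chr15:34299908-34300849, overlapped a peak of HFSC list 2 at chr15:34299925-34300873, and no IFE peak lay within 50 kb. This was the only peak inside any of the 9 loci found in both HFSC lists. HFSC list 2 is the shorter one, with 2989 peaks against 8181. Of the 16 peaks of list 1 within 50 kb of the 9 loci, 3 overlapped a peak of list 2. Whether binding bears on the expression of Matn2 or Wwp2 was not tested.

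Scrg1 had a different peak in each list and none in common. HFSC list 1 has chr8:59936683-59937072, inside the locus and 2.16 kb from its lower end. HFSC list 2 has chr8:59990102-59990759, 33.7 kb away inside Hmgb2, which encodes a chromatin protein. The IFE list has chr8:59918790-59919104, 15.6 kb away and in no listed gene. Hmgb2 had 14.9 and 15.4 FPKM in the controls and 16.8 and 17.9 with the cKO label.

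Of the 5 genes at or close to 0 in HFSCs, Acan, Comp, Matn3 and Matn4 had SOX9 peaks nearby, none of them inside the locus, and Hapln1 had none. Both HFSC lists share a peak 34.2 kb beyond Acan, at chr7:86294177-86294793 in list 1 and chr7:86294161-86294705 in list 2, which lies 231 and 215 bp from another gene, Mfge8. Mfge8, a secreted glycoprotein that bridges cells, stood at 83.7 and 57.9 FPKM with the cKO label against 82.5 and 125 in the controls, and was not called. The peaks near Matn4 lie around Sdc4, the gene of the proteoglycan syndecan-4: a peak 16.1 to 16.3 kb from Matn4 is in all 3 lists and one at 27.5 to 27.6 kb is in HFSC list 2 and the IFE list. Sdc4 stood at 471 and 263 FPKM against 512 and 355. Near Matn3, HFSC list 2 and the IFE list share a peak at 25.6 kb in Laptm4a, and HFSC list 1 has separate peaks at 31.1 kb and, inside Wdr35, at 2.39 kb. Comp had 1 peak of HFSC list 1 at 19.97 kb, over the rows Gdf1, Upf1 and Lass1.

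The limit of 50 kb decided a few of these counts. Just inside it was the IFE peak 45.3 kb from Matn4, over Trp53tg5, Dbndd2, Sys1 and Gm14302. Just outside were the IFE peak 53.1 kb from Scrg1 and a peak shared by all 3 lists 57.1 to 57.4 kb from Comp, inside Crtc1. Over the 9 loci HFSC list 1 gave 16 peaks, 7 of them inside, HFSC list 2 gave 6 with 1 inside, and the IFE list gave 5 with 0 inside. Since the lists differ in their number of peaks and the IFE cells have 1 library, these counts are not compared further.

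**Figure D4:**
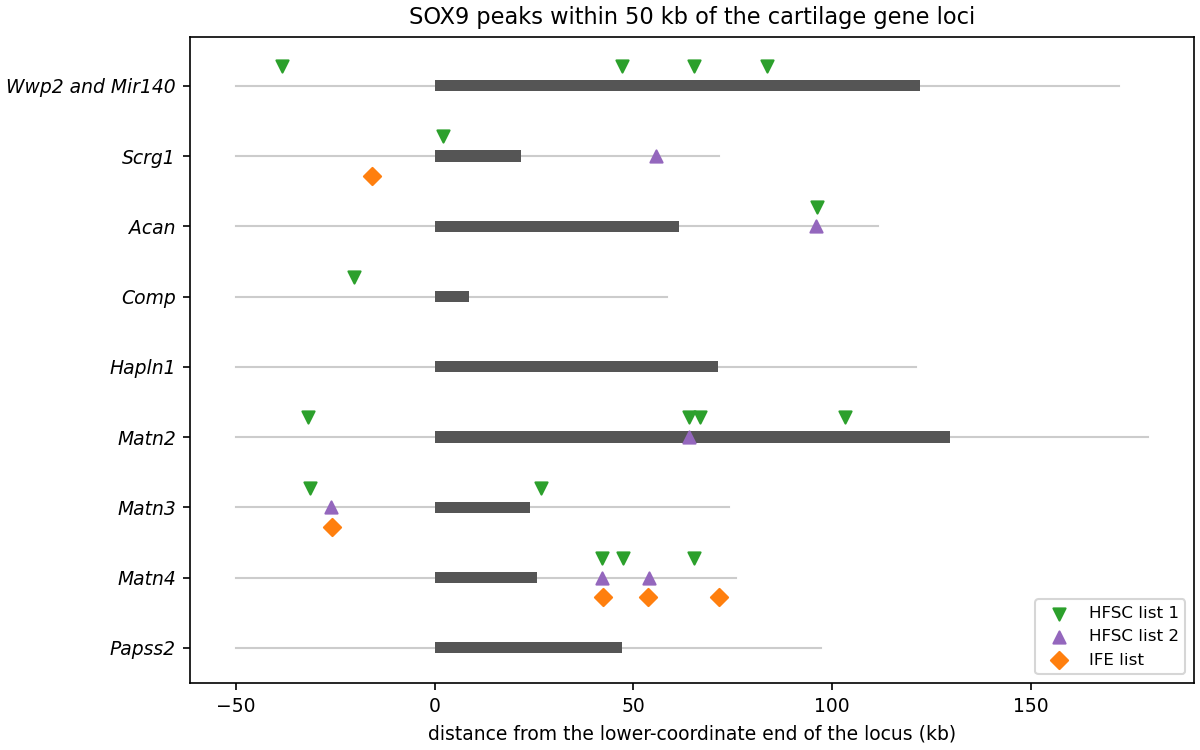
SOX9 peaks within 50 kb of each locus, plotted by the distance of the peak centre from the lower-coordinate end of the locus in kb (horizontal axis); dark bars are the loci, thin lines the 50 kb searched on each side, and the symbols the 3 peak lists. Wwp2 and Matn2 each hold 3 HFSC list 1 peaks inside the bar, Matn2 also the 1 HFSC list 2 peak inside a locus, and no IFE symbol falls inside a bar.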

How the data were processed

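The authors deposited expression as FPKM, per the file headers, in 1 table with a column for each of the 4 RNA libraries, and SOX9 peaks as positions alone (chromosome, start and end), 1 list per ChIP library. Named in the submitters' processing notes, without roles, are Bowtie, TopHat, TopHat2 and Cufflinks 1.0.3, with build mm9. The peak caller and strand setting are unknown here. The 3 input libraries were not used. Ratios of low FPKM between libraries showed no step (at most 4.29% fell in 1 bin), so depth is unknown and no count model was used.

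Limma 3.58.1 (R 4.3.3, two-sided, with mean trend) was run on log2(FPKM + 1) of the 14455 genes whose mean was at least 1 FPKM, with genotype alone and with the replicate number as a block. Calls needed a Benjamini-Hochberg adjusted p under 0.05. The numbers pair the libraries: by the labels both libraries of a pair share sex, age and treatment days, and their deviations from the genotype means correlated at 0.812 over genes, which are not independent. Whether the p-values reflect more than technical spread between 2 libraries per genotype is not known.

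The genes and lists (7 related lists, 8 marker lists) were chosen with earlier results of these data known. Named were the 10 genes, Sox9, called genes of the lists, the 2 tested genes of each related list with the largest difference of one sign in both pairs, the highest marker of each marker list, genes at the peaks, and the 3 genes nearest to Wwp2. Other genes named were chosen after their values were seen. An overlap of 1 bp or more made a peak shared. Sequences are from RefSeq (GRCm38.p6), whose gene table matched all 10 symbols.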

Additional observations from a re-analysis of the deposited data

Results flagged for a closer look

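Differences between labelled cKO and control ran in opposite directions in the male and the female pair for Comp, Matn4 and Sox9. With 1 pair per sex, the difference between the pairs was not tested. On the log2(FPKM + 1) scale, Comp gave 0.0683 in the male pair and -0.0147 in the female pair, and Matn4 gave -0.0463 and 0.261, both from levels far below 1 FPKM. Sox9 gave -0.212 and 0.779.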

How the results depend on the processing

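The replicate block, with which the pairs share sex, age and treatment days, raised the calls between genotypes from 0 to 41 over all genes, from 0 to 1 among the cartilage genes (Wwp2, adjusted p = 0.0273 by limma) and from 0 to 1 among the further genes (Thbs2). Median centring with the block gave 47, 1 and 1. Chosen after seeing the data, the block with a pseudocount of 5 gave 78, 2 (Wwp2 and Scrg1) and 1, with a mean of at least 5 FPKM 53, 1 and 1, with a pseudocount of 0.1 33, 1 and 0, with quantile normalization 3, 0 and 0, and without trend or filter 0 of each. The adjusted p of Wwp2 over these blocked fits ran from 0.00570 to 0.969. Without the block, dropping the filter gave 7 calls over all genes, and leaving out each library gave 2 (without control replicate 2) to 41 (without cKO replicate 1), with 0 to 1 cartilage gene, the 1 being Mir140 without cKO replicate 1. Calls between replicates fell from 7221 to 0 without the filter. With a library left out, the fit between replicates also dropped genotype from the model and had 1 library in a group. Its calls ran from 0 (without cKO replicate 1) to 6296 (without control replicate 2), with 1 without control replicate 1. Because the model changed as well, these counts cannot be set against 7221 and do not show dependence on a single library. Wwp2 and Scrg1 stayed lower under all settings run, from -1.91 to -1.22 and from -2.33 to -1.40 with a library left out. Leaving out each library turned the log2 difference of Matn2 (-0.14 to 0.89), Papss2 (-0.11 to 0.86), Sox9 (-0.13 to 0.69), Cd44 (-0.53 to 1.28), Nedd4l (-0.66 to 0.17), Smurf1 (-0.49 to 0.22), Dnpep (-0.23 to 0.50), Bgn (-0.78 to 1.33), Trps1 (-1.23 to 0.31) and Thbs1 (-0.57 to 1.33); the lone library left is assumed to vary like the others, and the cause was not tested. Of the 9 loci, 7 had an HFSC peak within 50 kb, 4 within 10 kb and 3 when both HFSC lists had to share it. Loci with an HFSC peak and no IFE peak numbered 4, 2 with shared HFSC peaks only, and 2 to 4 without each HFSC list. Shares of all loci were not taken for the count within 10 kb or for those without an IFE peak. These counts are therefore not read further.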
